A study of Mus musculus with 16 samples.

Results

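The cytochrome P450 genes of families 1 to 4 were followed in mouse liver after endotoxin, in wild-type mice and in mice with a point substitution in the NF-kB subunit p65. Members were the probe sets with a single gene symbol made of Cyp, a family number from 1 to 4, 1 letter and a number, and each gene was represented by its probe set of highest mean. The rule gave 65 genes in 20 subfamilies, of 19938 genes with a single symbol on the array, and each of the 65 had 1 such probe set. Of these, 53 genes in 18 subfamilies passed a filter on low values (above the 30th percentile of the array in at least 4 of the 16 arrays) and were tested among 15908 genes. The other 12 lay between 4.39 and 5.21 on every array, below the filter level of 5.25 to 5.44, and were Cyp2b13, Cyp2c65, Cyp2d12, Cyp2j11, Cyp2j12, Cyp2j13, Cyp2t4, Cyp3a16, Cyp3a57, Cyp4f37, Cyp4f40 and Cyp4x1. All levels are log2 RMA values, so a difference of 1 is a 2-fold change.

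Livers of male C57Bl/6 mice were profiled on 16 Affymetrix whole-transcript arrays, 4 in each of 4 groups. The groups were wild type (WT) untreated, WT given 1 mg/kg lipopolysaccharide (LPS), S534A untreated and S534A given the same dose. S534A mice are homozygous for a Rela allele in which the codon of the serine that gives the allele its name was changed to alanine in PTL1 embryonic stem cells. Chimeras were crossed to a Flipase line to remove the neo cassette, and the line was then backcrossed 5 times to C57Bl6/J. The substitution is present in every cell of these animals, so hepatocytes and immune cells carry it alike. Which of the 2 stem cell clones gave the line, the age of the mice, the hour of collection and the time after LPS are not stated in the labels. The untreated groups are not labelled as given vehicle, so the effect of LPS cannot be told apart from that of handling, feeding or hour of collection. Whether each of the 4 samples of a group is a different mouse is not stated, and the p-values therefore reflect the spread over these samples alone, part of which may be technical.

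Cytochromes P450 are heme enzymes of the endoplasmic reticulum that insert 1 oxygen atom into their substrate, with electrons passed on by P450 reductase and cytochrome b5. Families 1 to 3 hold most of the enzymes that oxidise drugs and other foreign compounds in hepatocytes, and family 4 holds hydroxylases of fatty acids and eicosanoids. Their genes are controlled by ligand-activated receptors, among them AhR for Cyp1a, CAR (Nr1i3) for Cyp2b, PXR (Nr1i2) for Cyp3a and PPARα for Cyp4a. Inflammation is known to lower the transcripts and activity of many hepatic P450s.

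Promoters of 3 Cyp3a genes are printed because they belong to the 6 members whose levels went with the clock genes of the same array, as described further on. The sequences are RefSeq windows of GRCm38.p6, 5′ to 3′ on the gene's strand, from 250 bases before to 50 bases after the start of the gene, and capitals mark AGGTCA or its reverse complement, the half-site that nuclear receptors of the CAR, PXR and ROR kind bind. They lie at chr5:145879805-145880104, chr5:145805825-145806124 and chr5:146009569-146009868, all on the minus strand.
Cyp3a11: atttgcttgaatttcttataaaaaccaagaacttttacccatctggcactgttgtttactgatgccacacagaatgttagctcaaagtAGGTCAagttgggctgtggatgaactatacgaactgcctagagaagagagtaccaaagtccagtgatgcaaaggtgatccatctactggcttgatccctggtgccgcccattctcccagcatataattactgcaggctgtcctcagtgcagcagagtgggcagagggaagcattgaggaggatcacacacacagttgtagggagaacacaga
Cyp3a44: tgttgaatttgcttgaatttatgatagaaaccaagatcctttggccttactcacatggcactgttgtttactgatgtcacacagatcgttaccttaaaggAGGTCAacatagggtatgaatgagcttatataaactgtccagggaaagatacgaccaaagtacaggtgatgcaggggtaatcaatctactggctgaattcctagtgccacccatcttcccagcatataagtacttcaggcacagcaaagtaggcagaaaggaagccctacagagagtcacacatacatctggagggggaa
Cyp3a25: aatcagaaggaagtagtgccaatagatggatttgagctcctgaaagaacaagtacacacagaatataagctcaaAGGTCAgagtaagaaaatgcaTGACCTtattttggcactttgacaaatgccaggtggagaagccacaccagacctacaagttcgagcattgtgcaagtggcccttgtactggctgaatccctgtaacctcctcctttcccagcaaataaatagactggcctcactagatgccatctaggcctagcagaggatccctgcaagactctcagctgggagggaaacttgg
The half-site begins at position −162 in Cyp3a11 and −150 in Cyp3a44, and the Cyp3a25 window printed holds it at −176 and, on the other strand, at −155. The other members whose levels went with the clock genes, Cyp2c55, Cyp4b1 and Cyp4f15, had no AGGTCA on either strand of their windows. It was also found in tested members whose relation to the clock genes did not pass. These were Cyp2b9, Cyp2b19, Cyp2b23, Cyp2c29, Cyp2c39, Cyp2c70, Cyp2d40, Cyp2f2 and Cyp2j5. A link between the site and the clock genes was not tested. In a global alignment 71.5% of the aligned positions were identical between the Cyp3a11 and Cyp3a44 windows, against 52.8% between Cyp3a11 and Cyp3a25.

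After LPS 41 of the 53 tested P450 genes had a change below 0 in WT liver, and a minority passed the threshold as lower. Among the 18 with a mean level above 12, which include the major drug-metabolising enzymes, changes ran from −0.32 to 0.32. Without untreated WT array 1 that range was wider, with Cyp2c37 at −0.50 and Cyp3a11 at 0.46, and without the 3 untreated arrays of shifted clock score described below Cyp3a11 stood at 0.62. Of the 53 tested members 14 fell and 1 rose (28.3% called), against 44.9% of all 15908 genes tested, and the share that fell was 26.4% against 29.9% (limma, adjusted p under 0.05). The median change was −0.17 over the members and −0.05 over all genes, and the median size of a change irrespective of sign was 0.20 against 0.21. Single changes ran from −2.19 for Cyp2u1 to 1.22 for Cyp2b9, and 37 of the 53 had a 95% interval that lay within 1.5-fold either way. Falls of at least 2-fold were called for 3 members (5.66%), against 3.68% of all genes. In 15 members the 4 LPS-treated arrays did not overlap the 4 untreated ones, where 38.3% of all genes had no overlap. In a bulk sample fewer cells of a type and less RNA per cell cannot be told apart.

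In S534A liver 21 members fell and 1 rose (41.5% called), against 45.4% of all genes, and the share that fell was 39.6% against 31.2%. Changes were below 0 in 44 of the 53 members, and the median change was −0.18 over the members and −0.03 over all genes. Falls of at least 2-fold were again called for 3 members (5.66%), against 4.26% of all genes, and 20 members had groups without overlap, against 48.1%. The 11 members called in both genotypes were 73.3% of those called in WT and 11 of the 22 called in S534A, and all 11 fell in both. Over all genes these shares were 83.8% and 82.8%. Of the 11, 9 kept their call in both genotypes in each alternative analysis that tested them, apart from the 1.5-fold minimum, namely Cyp2c68, Cyp2d13, Cyp2d22, Cyp2r1, Cyp2u1, Cyp4b1, Cyp4f13, Cyp4f14 and Cyp4f15, and Cyp1a1 and Cyp2c23 did not.

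**Figure D1:**
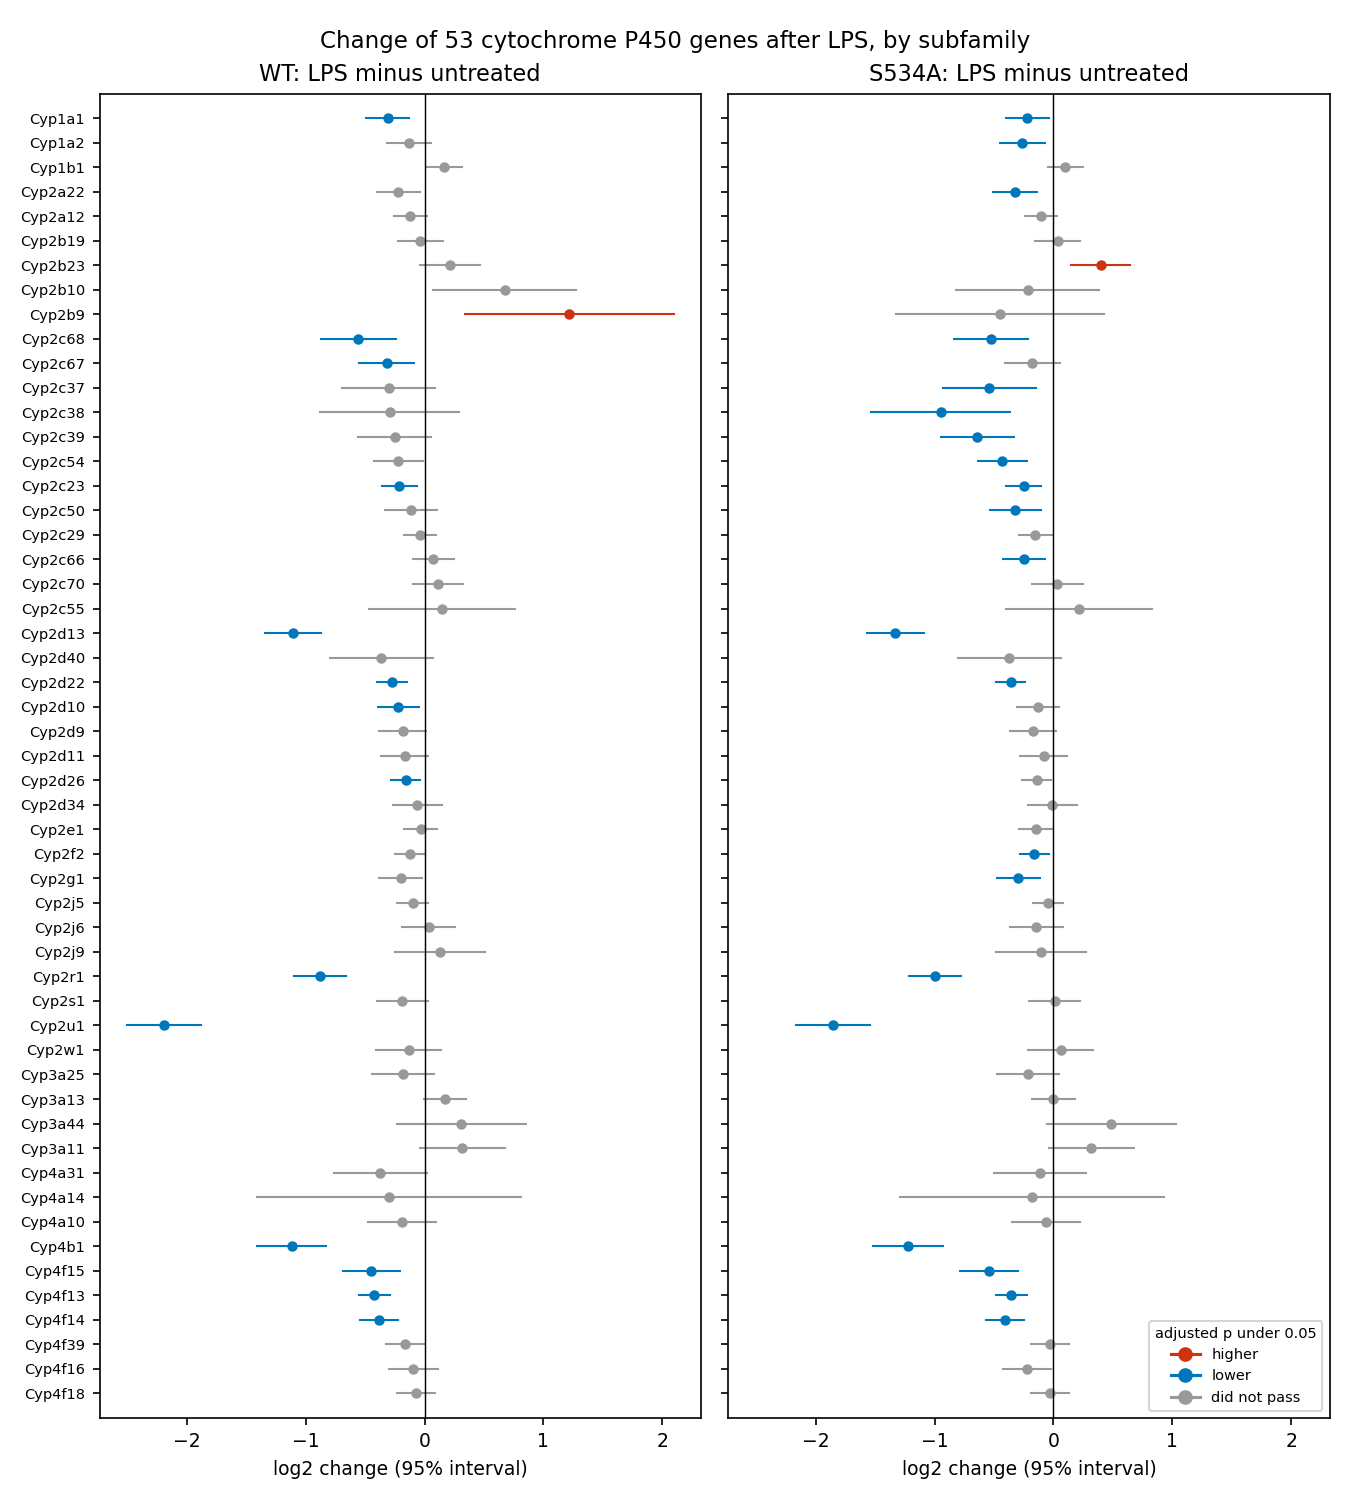
Change of each of the 53 tested P450 genes after LPS in WT (left) and S534A liver (right), in log2 units with the 95% interval of the limma fit (n = 4 arrays per group), ordered by subfamily. Colour marks genes past an adjusted p of 0.05; Cyp2u1, Cyp2d13, Cyp4b1 and Cyp2r1 stand furthest to the left in both panels, and the genes of Cyp2j, Cyp3a and Cyp4a are grey in both.

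The largest fall in both genotypes was that of Cyp2u1, an enzyme that hydroxylates long-chain fatty acids such as arachidonic acid. The untreated WT arrays gave 10.07, 10.00, 9.91 and 9.76 and the LPS-treated ones 7.85, 7.73, 7.97 and 7.43. For S534A the untreated values were 9.72, 9.83, 9.61 and 9.79 and the LPS values 7.51, 7.71, 8.33 and 7.99. Every LPS-treated array lay below every untreated one, by at least 1 log2 unit in both genotypes. The change was −2.19 ± 0.15 in WT (SE, 4.57-fold lower, with a limma adjusted p of 2.98e-09) and −1.85 ± 0.15 in S534A (3.61-fold lower, with one of 2.47e-08).

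Cyp4b1, which oxidises fatty acids and some plant toxins, stood at 9.18, 9.39, 8.99 and 9.54 in untreated WT and at 8.04, 8.47, 7.86 and 8.26 in LPS-treated WT. Its S534A values were 9.41, 9.22, 8.95 and 9.34 against 8.0, 8.03, 7.85 and 8.15. The groups were apart in both genotypes, with changes of −1.12 ± 0.14 (2.17-fold, limma adjusted p = 4.40e-06) and −1.22 ± 0.14 (adjusted p = 1.62e-06). Cyp2r1, a vitamin D 25-hydroxylase, was 9.57, 9.23, 9.64 and 9.57 in untreated WT and 8.59, 8.94, 8.44 and 8.52 after LPS. Its S534A values were 9.60, 9.57, 9.66 and 9.61 against 8.59, 8.51, 8.70 and 8.64. The LPS arrays were lower throughout, by 0.88 ± 0.10 in WT (1.84-fold, with a limma adjusted p of 2.58e-06) and by 1.00 ± 0.10 in S534A (5.99e-07).

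Cyp2d13, which RefSeq lists as a transcribed pseudogene of the Cyp2d cluster, had the other fall of over 2-fold in both genotypes. It was 10.92, 11.22, 10.99 and 11.41 in untreated WT and 10.11, 10.07, 10.09 and 9.85 after LPS. In S534A it was 11.38, 11.50, 11.39 and 11.29 against 9.78, 10.13, 10.25 and 10.09. The groups did not overlap, and the change was −1.11 ± 0.11 in WT (2.15-fold lower, with a limma adjusted p of 4.96e-07) and −1.33 ± 0.11 in S534A (5.38e-08). Cyp2d37-ps, a second Cyp2d pseudogene whose symbol the member rule does not take in, fell as well, by 1.02 ± 0.26 in WT and 1.74 ± 0.26 in S534A.

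**Figure D2:**
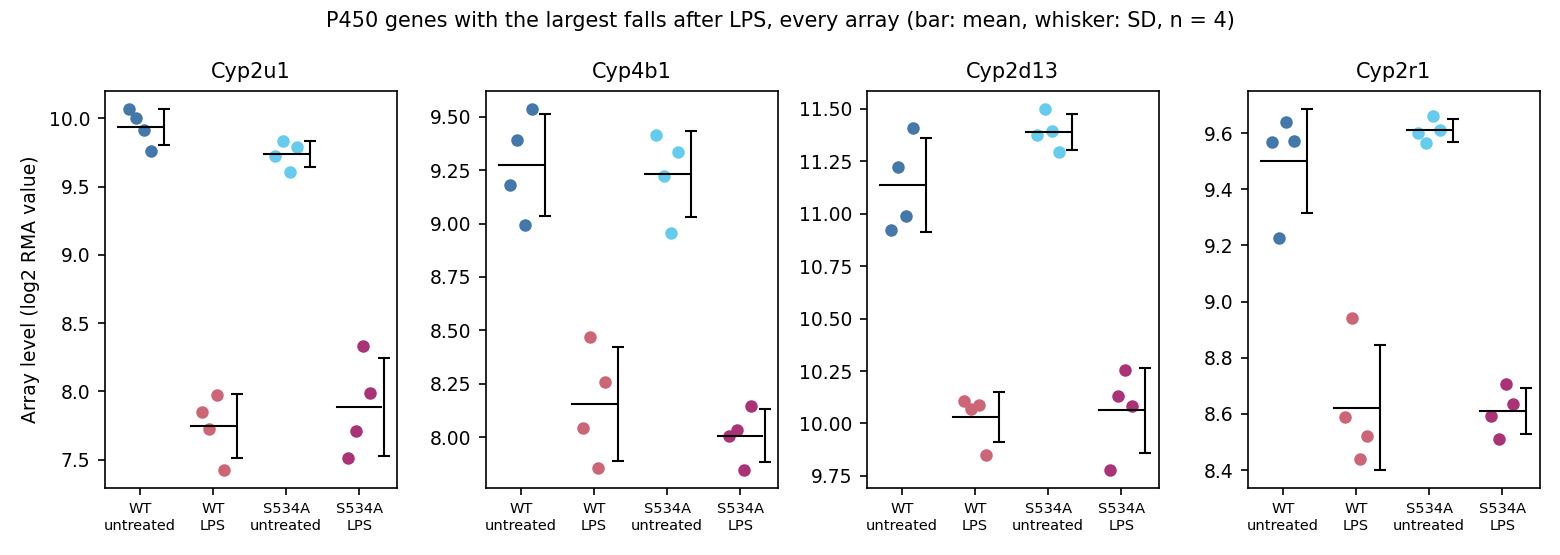
Level of the 4 P450 genes with the largest falls shared by both genotypes, in each of the 16 arrays, as log2 RMA values on a separate axis per gene (bar, mean; whisker, SD; n = 4). In every panel all LPS-treated arrays lie below all untreated arrays of their genotype, for Cyp2u1 at 7.43 to 8.33 against 9.61 to 10.07.

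The remaining Cyp2d genes encode hepatic monooxygenases, among them Cyp2d22, often set beside human CYP2D6, and Cyp2d9, a male-biased testosterone hydroxylase. Of 8 tested members 4 fell in WT and 2 in S534A, where 29.9% and 31.2% of all genes fell. Cyp2d22 fell in both, by 0.27 ± 0.06 in WT and 0.36 ± 0.06 in S534A, and its LPS-treated arrays (12.27 to 12.42) lay below all untreated ones (12.54 to 12.75). Cyp2d10 (−0.22 ± 0.08, limma adjusted p = 0.0382) and Cyp2d26 (−0.16 ± 0.06, adjusted p = 0.0344) passed in WT. In S534A Cyp2d26 stood at −0.14 and passed under 6 alternative settings (0.00423 to 0.0492), among them no filter and array quality weights. Cyp2d10 passed in S534A with arrays centred on their medians (−0.23, 0.0303). Cyp2d26, the member of highest level in the subfamily, was 13.38, 13.44, 13.49 and 13.54 in untreated WT and 13.29, 13.35, 13.29 and 13.30 after LPS, and its S534A values were 13.46, 13.45, 13.47 and 13.52 against 13.23, 13.37, 13.40 and 13.34. The Cyp2d10 call depended on LPS-treated WT arrays 1, 3 and 4 and untreated WT arrays 2, 3 and 4, without any of which it was lost (0.0548 to 0.0972), and Cyp2d26 without WT array 1, 3 or 4 of the LPS or 3 or 4 of the untreated group (0.0663 to 0.0907). Cyp2d9 stood at −0.18 ± 0.09 and −0.17 ± 0.09 and did not pass, although it passed in WT without LPS-treated S534A array 1 (0.0284). Cyp2d40 likewise stood at −0.36 in WT and passed without that array (0.0185).

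The falls of family 4 were those of Cyp4b1, given above, and of Cyp4f genes. Of 6 tested Cyp4f genes, whose products include hydroxylases of leukotriene B4 and other eicosanoids, Cyp4f13, Cyp4f14 and Cyp4f15 fell in both genotypes. The share of all genes that fell was 29.9% in WT and 31.2% in S534A. Cyp4f13 was 11.25, 11.32, 11.39 and 11.40 in untreated WT and 10.80, 11.01, 10.94 and 10.94 after LPS, and in S534A 11.40, 11.35, 11.37 and 11.37 against 11.02, 11.08, 10.97 and 11.01. Its groups did not overlap, with changes of −0.42 ± 0.06 in WT (limma adjusted p = 2.36e-05) and −0.35 ± 0.06 in S534A (0.000133). Cyp4f14 was 12.20, 12.06, 12.31 and 12.18 in untreated WT and 11.72, 11.86, 11.69 and 11.95 after LPS, a fall of 0.39 ± 0.08. Cyp4f15 was 11.62, 11.97, 11.59 and 12.07 in untreated WT and 11.43, 11.43, 11.31 and 11.30 after LPS, a fall of 0.45 ± 0.12. For S534A the Cyp4f14 values were 12.21, 12.14, 12.27 and 12.17 against 11.74, 11.70, 11.84 and 11.89, and those of Cyp4f15 were 11.95, 11.98, 11.86 and 11.92 against 11.65, 11.12, 11.46 and 11.30. Both had separate groups in each genotype, and the S534A falls were 0.41 ± 0.08 and 0.54 ± 0.12. Cyp4f16, Cyp4f18 and Cyp4f39 did not pass, with WT changes from −0.16 to −0.07. Cyp4f39 passed in WT without untreated WT array 2 (−0.22, 0.0310), and Cyp4f16, at −0.22 in S534A, passed without LPS-treated S534A array 1, untreated S534A array 2 or LPS-treated WT array 3 (0.0277 to 0.0498).

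The Cyp4a genes, fatty acid ω-hydroxylases and classical targets of PPARα, gave no call in the fit of all arrays, and Cyp4a31 passed in WT with arrays centred on their medians (−0.48, limma adjusted p = 0.0381) or without untreated WT array 2 (−0.55, 0.0150). Cyp4a10 was 12.39, 11.90, 12.22 and 12.41 in untreated WT and 12.00, 12.31, 11.81 and 12.03 after LPS, and in S534A 12.14, 11.83, 12.46 and 12.22 against 12.02, 12.12, 12.04 and 12.23. The groups overlapped in both genotypes (−0.19 ± 0.14 and −0.06 ± 0.14). Cyp4a31 stood at −0.37 ± 0.18 in WT (limma adjusted p = 0.116). Cyp4a14 had the largest standard deviation pooled over the groups among the members, and Cyp2b9, described below, the largest range within 1 group (2.38). The Cyp4a14 values were 11.97, 10.42, 12.10 and 11.91 in untreated WT, 10.70, 11.98, 10.33 and 12.20 in LPS-treated WT, 10.46, 11.21, 12.43 and 11.89 in untreated S534A and 12.34, 10.76, 10.46 and 11.72 in LPS-treated S534A. Each group held both low and high arrays, and the SE of an LPS change was 0.52.

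The Cyp2c subfamily was the largest, with 13 members of which 12 were tested, and includes epoxygenases of arachidonic acid. Of the 12, 3 fell in WT and 8 in S534A, and none rose, where 29.9% and 31.2% of all genes fell. Cyp2c68 fell in both genotypes. It was 11.13, 11.19, 11.64 and 11.68 in untreated WT and 10.89, 10.91, 11.05 and 10.56 after LPS, and in S534A 11.71, 11.27, 11.68 and 11.36 against 11.11, 10.70, 11.13 and 10.99. The LPS-treated arrays were lower throughout, by 0.56 ± 0.15 in WT (limma adjusted p = 0.00516) and 0.52 ± 0.15 in S534A (0.00770). Cyp2c23, an arachidonic acid epoxygenase, also fell in both, by 0.21 ± 0.07 and 0.25 ± 0.07, with overlapping groups in WT. Its WT call was lost without WT array 4 of the LPS or 4 of the untreated group (0.0552 and 0.0667).

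Falls past the threshold in S534A alone came from Cyp2c37, Cyp2c38, Cyp2c39, Cyp2c50, Cyp2c54 and Cyp2c66. Cyp2c38 was 9.49, 9.55, 9.67 and 9.54 in untreated S534A and 9.23, 7.85, 8.75 and 8.62 after LPS, a change of −0.95 ± 0.28 (limma adjusted p = 0.00932). In untreated WT it was 8.25, 9.43, 9.46 and 9.76, and in LPS-treated WT 8.98, 9.04, 8.69 and 9.04. The groups were apart in S534A, while in WT the untreated array 1 lay below all treated ones. The WT change was −0.29 ± 0.28 and became −0.62 (adjusted p = 0.0292) without that array. Cyp2c39, a retinoic acid hydroxylase, was 6.74, 6.66, 6.57 and 6.39 in untreated S534A and 6.07, 5.58, 6.29 and 5.85 after LPS, a change of −0.64 ± 0.15 with no overlap. In WT it was 6.19, 6.63, 6.42 and 6.84 against 6.38, 6.34, 6.14 and 6.22, with overlap (−0.25).

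Cyp2c37 was 13.01, 12.86, 12.83 and 12.80 in untreated S534A and 11.96, 12.64, 12.40 and 12.35 after LPS, and in WT 11.96, 12.74, 12.72 and 12.85 against 12.54, 12.19, 12.46 and 11.88. The S534A groups did not overlap (−0.54 ± 0.18, limma adjusted p = 0.0245), and the call was lost without LPS-treated S534A array 1 (−0.41, 0.0884) or untreated S534A array 1 (0.0643). Without untreated WT array 1 it passed in WT too (−0.50, 0.0135). Cyp2c54 behaved alike, at −0.43 ± 0.10 in S534A and −0.22 in WT, and −0.32 (0.00572) in WT without that same array. Cyp2c50 (−0.32 ± 0.10) was lost without LPS-treated or untreated S534A array 1 (0.0651 and 0.0536), and Cyp2c66 (−0.25 ± 0.08) without LPS-treated S534A array 3 or untreated S534A array 1 (0.0875 and 0.0822). Cyp2c67 passed in WT alone (−0.32 ± 0.11), a call lost without WT array 2 or 4 of the LPS or 4 of the untreated group (0.0554 to 0.0888). The difference between the genotypes in LPS change did not pass for any of these genes, as given below, which does not show that they respond alike.

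Cyp2c29, a major hepatic Cyp2c enzyme, was 13.24, 13.35, 13.34 and 13.50 in untreated WT and 13.37, 13.33, 13.29 and 13.29 after LPS, and in S534A 13.45, 13.42, 13.46 and 13.33 against 13.20, 13.27, 13.34 and 13.23. The WT groups overlapped (−0.04 ± 0.06), and the S534A change of −0.15 ± 0.06 did not pass (limma adjusted p = 0.0655), although it did without untreated WT array 4 (0.0415) and under the same 3 settings that gave a call for Cyp2e1, described below (0.00724 to 0.0166). Cyp2c70, which makes the muricholic bile acids of mice, stood at 0.11 ± 0.10 and 0.03 ± 0.10. A probe set shared by Cyp2c67, Cyp2c68, Cyp2c69 and Cyp2c40 fell by 0.27 ± 0.07 and 0.19 ± 0.07. The genes of this subfamily are close copies of each other, so a probe set named for 1 gene can take up transcripts of another, and single-gene values in it are uncertain.

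Among the Cyp1 genes, which AhR controls, the changes were small. Cyp1a2, an abundant hepatic enzyme that oxidises caffeine and aromatic amines, was 12.83, 13.17, 12.91 and 13.12 in untreated WT and 12.88, 12.85, 12.95 and 12.81 after LPS, with overlap (−0.13 ± 0.09). In S534A it was 13.07, 13.09, 13.00 and 13.09 against 12.56, 12.85, 12.95 and 12.85, a fall of 0.26 ± 0.09 (limma adjusted p = 0.0237). That call was lost without LPS-treated S534A array 1 or untreated S534A array 2 or 4 (0.0529 to 0.0909). Cyp1a1 lay near the filter level, at 5.78 to 6.01 in untreated WT and 5.49 to 5.62 after LPS, and fell by 0.31 ± 0.08. Its S534A fall of 0.22 ± 0.08, with overlapping groups, was lost in 8 of the 16 analyses that left out 1 array (0.0505 to 0.134), namely LPS-treated S534A array 1 or 3, untreated S534A array 2, 3 or 4, LPS-treated WT array 3 or 4 and untreated WT array 3. Cyp1b1, better known from tissues other than liver, was 5.53 to 5.73 in untreated WT and 5.68 to 5.85 after LPS, and 5.45 to 5.67 against 5.58 to 5.74 in S534A. Its WT change was 0.17 ± 0.07 (adjusted p = 0.0664) and passed without WT array 2 of the LPS or 1 of the untreated group (0.0368 and 0.0288).

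Cyp2e1 and Cyp2f2, which turn common hepatotoxins into reactive products, had changes between −0.16 and −0.03. Cyp2e1, which oxidises ethanol and acetaminophen, was 13.71, 13.86, 13.74 and 13.97 in untreated WT and 13.81, 13.82, 13.78 and 13.74 after LPS. In S534A it was 13.97, 13.89, 13.87 and 13.82 against 13.73, 13.71, 13.83 and 13.70. The groups overlapped, and the changes were −0.03 ± 0.07 and −0.15 ± 0.07, the second with a limma adjusted p of 0.0806. It passed in S534A with arrays centred on their medians, with a second quantile normalization and with a trended and robust eBayes step (0.0140 to 0.0424). Cyp2f2, which activates naphthalene, was 13.72, 13.64, 13.68 and 13.76 in untreated WT and 13.62, 13.60, 13.60 and 13.49 after LPS. These groups did not overlap, and the change of −0.12 ± 0.06 did not pass. Under the same 3 settings Cyp2f2 passed in WT (limma adjusted p from 0.00664 to 0.0380). In S534A it was 13.81, 13.75, 13.76 and 13.72 against 13.60, 13.56, 13.69 and 13.56, a fall of 0.16 ± 0.06 with no overlap (adjusted p = 0.0302) that was lost without LPS-treated S534A array 1, 2 or 4 or untreated S534A array 1, 2 or 3 (0.0534 to 0.0839). Cyp2a12, a bile acid hydroxylase, was 12.75, 12.71, 12.72 and 12.77 in untreated WT and 12.63, 12.61, 12.71 and 12.52 after LPS, with S534A values of 12.80, 12.77, 12.69 and 12.69 against 12.58, 12.54, 12.78 and 12.63. Its changes were −0.12 ± 0.07 and −0.10 ± 0.07, and the S534A groups overlapped. The other Cyp2a member, Cyp2a22, fell in S534A (−0.32 ± 0.09) and not in WT (−0.22), where it passed without LPS-treated WT array 2, untreated WT array 3 or 4 or untreated S534A array 4 (0.0156 to 0.0473). Cyp2g1, known from olfactory tissue and near the filter level here, was 5.97, 5.94, 5.69 and 5.83 in untreated S534A and 5.56, 5.44, 5.64 and 5.62 after LPS, a fall of 0.30 ± 0.09 without overlap. Its WT values were 5.88, 5.69, 5.84 and 5.88 against 5.52, 5.85, 5.56 and 5.57, which overlapped, and its WT change of −0.20 passed without WT array 2 of the LPS or 2 of the untreated group (0.00931 and 0.0405).

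No Cyp2j gene was called in S534A, and in WT Cyp2j5 passed with arrays centred on their medians (−0.20, limma adjusted p = 0.0122). Cyp2j5, an epoxygenase of liver and kidney, was at 12.80, 12.81, 12.75 and 12.75 in untreated WT and 12.74, 12.55, 12.80 and 12.62 after LPS (−0.10 ± 0.06), and its S534A values were 12.77, 12.79, 12.74 and 12.77 against 12.71, 12.68, 12.78 and 12.73. The groups overlapped in both genotypes. Cyp2w1 was not called in either genotype, nor was Cyp2s1, except in WT with median centring or a second quantile normalization (0.0196 and 0.0185). Both lay low on the arrays, Cyp2w1 at 5.96 to 6.70 and Cyp2s1 at 5.88 to 6.46, with overlap of the groups in both genotypes. Over the 18 tested members with a mean level above 12, WT changes ran from −0.32 to 0.32 with 4 falls, and S534A changes from −0.54 to 0.32 with 7 falls. Of all 405 genes with such a mean 110 were lower and 61 higher in WT (42.2% called, against 22.2% of the 18 members). In S534A 135 were lower and 53 higher (46.4% called, against 38.9% of the members). All calls among the 18 members were falls. Values on the arrays reached 14.54, and whether probe sets respond less near the top of the scale was not tested.

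The Cyp2b genes, the best known targets of CAR, held both rises past the threshold, Cyp2b9 in WT and Cyp2b23 in S534A, in the unweighted fit of all 16 arrays without a covariate. With array quality weights Cyp3a11 and Cyp3a44 rose as well in S534A, as given below. Cyp2b9, which is more strongly expressed in female than in male mouse liver, was 5.94, 6.22, 6.84 and 6.51 in untreated WT and 7.61, 7.72, 6.84 and 8.21 after LPS. The S534A arrays gave 5.96, 6.65, 8.34 and 7.42 without treatment, against 7.36, 6.10, 6.30 and 6.82 after LPS. The WT groups met at 6.84, and in S534A the untreated arrays spanned the treated ones. The WT rise was 1.22 ± 0.41 (2.33-fold, limma adjusted p = 0.0235), and it was lost without LPS-treated WT array 4 (1.02, 0.0804), untreated WT array 1 (1.07, 0.0675) or untreated WT array 2 (1.17, 0.0522). The S534A change was −0.45 ± 0.41. The number of members that rose in WT was 0 without LPS-treated WT array 4 and 2 without untreated WT array 1, LPS-treated WT array 2 or LPS-treated S534A array 3.

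Cyp2b10 was 7.87, 9.18, 8.08 and 8.72 in untreated WT and 9.08, 8.90, 9.16 and 9.41 after LPS, and in S534A 8.32, 9.05, 9.12 and 9.07 against 8.86, 8.14, 9.34 and 8.35. The groups overlapped in both genotypes, and the WT change of 0.67 ± 0.28 did not pass (limma adjusted p = 0.0641), although it did without untreated WT array 2 (0.91, 0.0120) or LPS-treated S534A array 3 (0.0443), with array quality weights (0.98, 0.00876), with the clock score as a covariate (0.0470) and with a second quantile normalization (0.0499). Cyp2b23 rose in S534A, from 5.79, 5.69, 5.82 and 5.50 to 5.98, 6.01, 6.15 and 6.25, without overlap (0.40 ± 0.12, adjusted p = 0.0108). In WT it was 6.05, 5.84, 6.05 and 5.65 against 6.06, 5.89, 6.44 and 6.06, which overlapped and did not pass (0.22). It lay close to the filter level and was not tested when the filter was set at the array median.

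Cyp2b9, Cyp2b10, Cyp2c38, Cyp2c55, Cyp2d40, Cyp3a44 and Cyp4a14 had a standard deviation within groups above 0.3. These 7 were 13.2% of the tested members, against 4.70% of all genes tested, and Cyp4a14 (0.860) and Cyp2b9 (0.677) lay above the 99th percentile of all genes. Over all members the median was 0.146, against 0.143 for all genes.

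**Figure D3:**
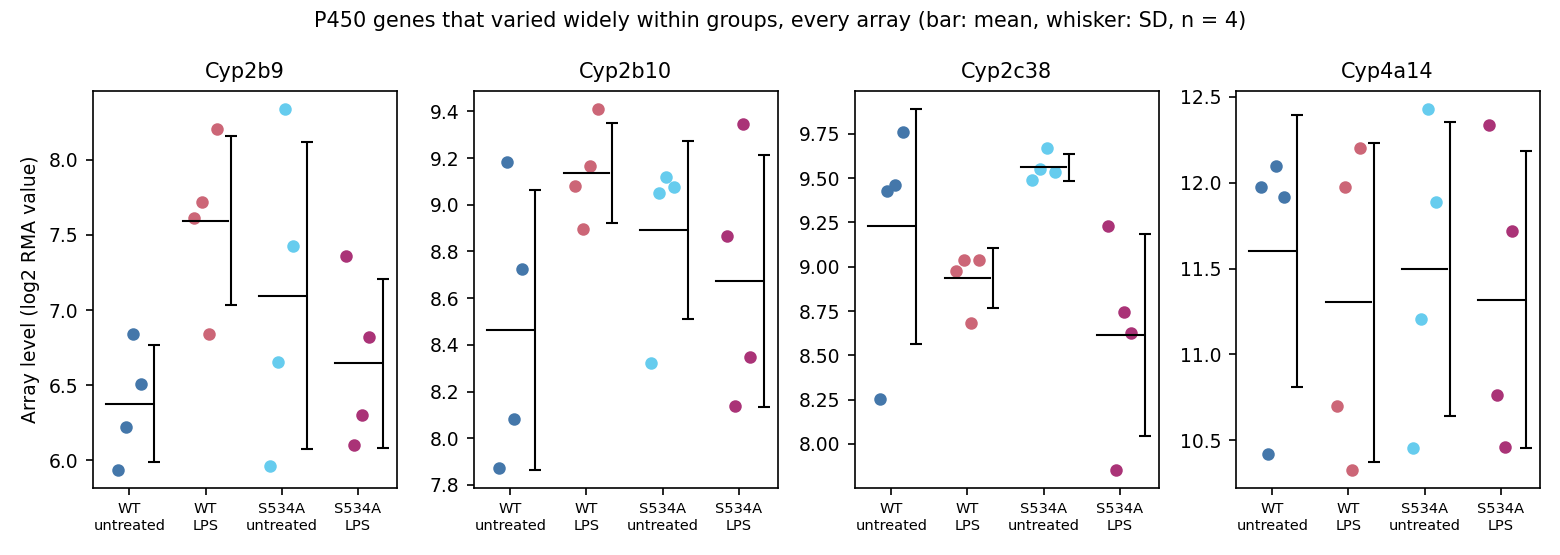
Level of 4 P450 genes that varied widely within groups, in each of the 16 arrays, as log2 RMA values on a separate axis per gene (bar, mean; whisker, SD; n = 4). The groups overlap for Cyp4a14, Cyp2b10 and, at 6.84, for Cyp2b9 in WT, while for Cyp2c38 the untreated S534A arrays (9.49 to 9.67) lie above the LPS-treated ones (7.85 to 9.23).

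The Cyp3a genes encode the main drug oxidases of the intestine and liver and are induced through PXR, and none of the 4 tested passed in either genotype in the unweighted fit of all arrays without a covariate. Alternatives gave calls. In S534A Cyp3a25 was lower with arrays centred on their medians (−0.31, limma adjusted p = 0.0362) or with the clock score described below as a covariate (−0.25, 0.0392), and Cyp3a11 (0.32, 0.0455) and Cyp3a44 (0.46, 0.0471) were higher with array quality weights. Calls of Cyp3a11 and Cyp3a44 with the clock score or with arrays left out follow below. Cyp3a11, the gene usually set beside human CYP3A4, was 13.45, 12.57, 13.21 and 12.86 in untreated WT and 13.37, 13.40, 13.36 and 13.22 after LPS. The S534A arrays gave 12.83, 12.70, 13.42 and 13.05 when untreated, against 13.43, 13.14, 13.49 and 13.21 after LPS. The treated arrays lay close together near the top of the untreated range, and the change was 0.32 ± 0.17 in both genotypes (limma adjusted p = 0.148 and 0.141). Cyp3a44 had the same picture, at 8.52, 7.31, 8.27 and 7.69 in untreated WT and 8.38, 8.19, 8.19 and 8.27 after LPS. Its S534A values were 7.31, 7.58, 8.66 and 7.99 against 8.50, 8.19, 8.52 and 8.26, and its changes were 0.31 ± 0.26 and 0.49 ± 0.26. Cyp3a13 stood at 0.17 ± 0.08 in WT (adjusted p = 0.115) and had an adjusted p of 0.997 in S534A, and Cyp3a25 stood at −0.18 ± 0.12 and −0.21 ± 0.12. Probe sets shared with Cyp3a41a and Cyp3a41b did not pass either, and cross-hybridisation between these close copies was not tested.

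The untreated arrays differed in their clock genes, and the levels of 3 of the 4 tested Cyp3a genes went with that difference. A clock score, the level of Arntl taken from the mean over Tef, Dbp, Per3, Per2 and Per1, was −1.70, 3.43, −1.77 and 3.47 in untreated WT and 3.33, 3.41, −2.55 and 0.96 in untreated S534A. After LPS it was 0.67, 1.53, −0.01 and 0.94 in WT and 0.99, −0.70, 0.88 and 1.63 in S534A. WT arrays 1 and 3 and S534A array 3 of the untreated groups, the arrays with negative scores among the untreated ones, held the highest untreated levels of Cyp3a11 and Cyp3a44 in their genotype. With the score as a covariate beside the group means, the level per unit of score changed by −0.17 ± 0.03 for Cyp3a44 (limma adjusted p = 0.000347) and −0.10 ± 0.02 for Cyp3a11 (adjusted p = 0.00306). Cyp2c55 (−0.14 ± 0.04), Cyp3a25 (−0.06 ± 0.02), Cyp4b1 (0.07 ± 0.02) and Cyp4f15 (0.06 ± 0.02) passed as well, while Cyp3a13 did not (0.01 ± 0.02, adjusted p = 0.622). These 6 members were 11.3% of the 53, against 13.6% of all genes tested.

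The relation rested on few arrays. When each array was left out in turn, the slopes of Cyp3a44 and Cyp3a11 passed every time (largest adjusted p 0.00842 and 0.0279), and the other 4 were each lost in some of these analyses (largest 0.0836 to 0.182). Without the 3 untreated arrays of negative score, none of the 6 slopes passed (0.744 to 0.874). The slopes were then −0.03 ± 0.05 for Cyp3a11, −0.08 ± 0.06 for Cyp3a44, −0.04 ± 0.05 for Cyp3a25 and −0.09 ± 0.11 for Cyp2c55. Those of Cyp4b1 (0.07 ± 0.06) and Cyp4f15 (0.07 ± 0.05) kept about their size. All 6 had a larger SE than with all arrays, so the lost calls do not show that the relation was absent. No pooled correlation is given, since the untreated WT scores fall into 2 pairs.

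Leaving out these 3 arrays changed the Cyp3a result. They held the highest untreated levels of Cyp3a11 and Cyp3a44 in their genotype, so their absence by itself raises the LPS change of both. Untreated WT was left with arrays 2 and 4 alone, at scores of 3.43 and 3.47. All LPS-treated WT arrays lay lower, at −0.01 to 1.53, so LPS and clock score cannot be told apart in WT in that fit. Cyp3a11 then rose by 0.62 ± 0.12 in WT (1.54-fold, with a limma adjusted p of 0.000908) and 0.46 ± 0.11 in S534A (0.00312), and Cyp3a44 by 0.76 ± 0.16 and 0.75 ± 0.14 (adjusted p = 0.00163 and 0.000597). Over the members 5 rose and 17 fell in WT and 3 rose and 19 fell in S534A, against 42.1% and 45.3% of all genes called. With all arrays and the score as a covariate, Cyp3a11 passed in WT (0.31 ± 0.11, 0.0220) and not in S534A (0.26, 0.0542), and Cyp3a44 passed in S534A (0.39 ± 0.13, 0.0216) and not in WT (0.30, 0.0726). A single array was enough in part: Cyp3a11 passed in WT without untreated array 1 (0.46, 0.0313) and in S534A without untreated array 3 (0.46, 0.0308), and Cyp3a44 in S534A without the latter (0.75, 0.0125), which raised the count of members that rose in S534A from 1 to 3. Hour of collection, feeding and clock state cannot be told apart in these data.

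**Figure D4:**
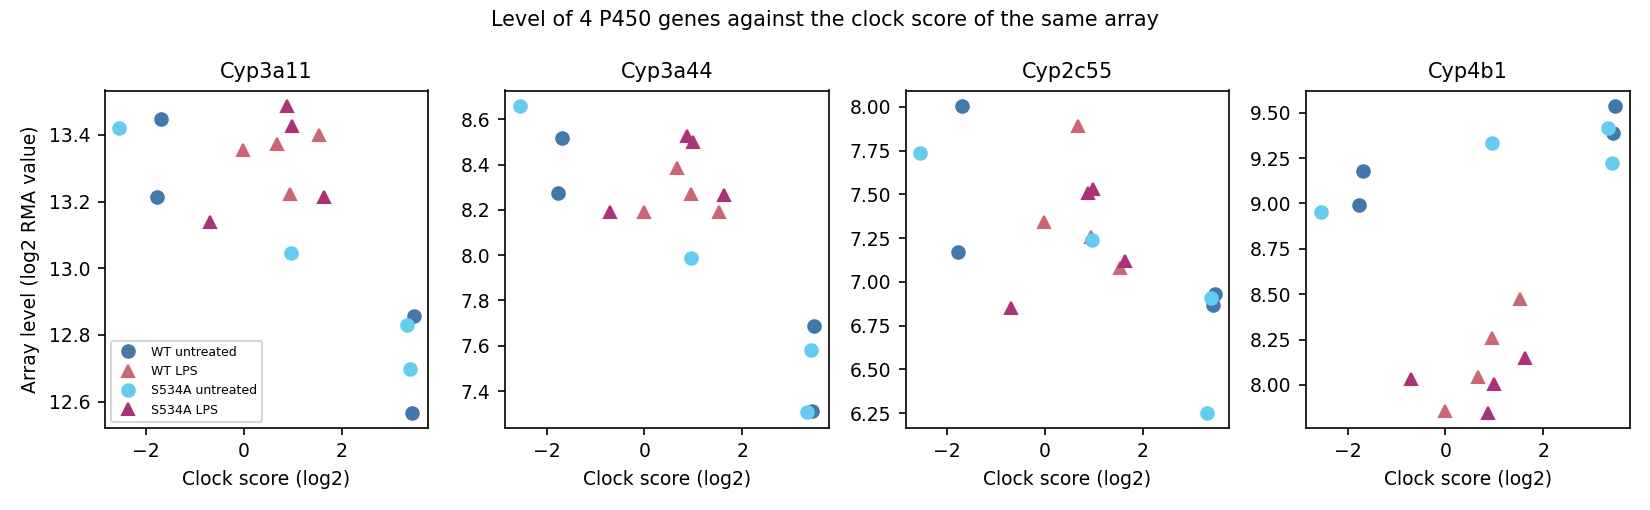
Level of Cyp3a11, Cyp3a44, Cyp2c55 and Cyp4b1 (log2 RMA value, separate axes) against the clock score of the same array, 16 arrays coloured by group (circles, untreated; triangles, LPS). Untreated arrays with scores above 3 hold Cyp3a11 levels of 12.57 to 12.86 and those with negative scores 13.21 to 13.45, while the LPS-treated arrays lie at 13.14 to 13.49 with scores between −0.70 and 1.63.

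The S534A substitution gave no call among the members in any comparison of the genotypes. After LPS 0 of 53 passed (all genes 0%, limma), with 2 at an unadjusted p under 0.05 against 3.0% of all genes, and 45 had a 95% interval within 1.5-fold. The members of lowest p were Cyp2b9 (−0.95 ± 0.41, S534A minus WT), Cyp2c39 (−0.32 ± 0.15), Cyp4f13 (0.10 ± 0.06), Cyp2b10 (−0.46 ± 0.28) and Cyp2c23 (0.11 ± 0.07), each with an adjusted p of 1.00. No member had groups without overlap there, against 2.03% of all genes.

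Without treatment 0 of 53 members passed, against 0.0126% of all genes (0.00629% in each direction), with 3 members at an unadjusted p under 0.05 (8.88% of all genes) and 43 with an interval within 1.5-fold. Cyp2c66 (0.26 ± 0.08, limma adjusted p = 0.312) was at 5.35, 5.48, 5.48 and 5.45 in untreated WT and 5.87, 5.66, 5.64 and 5.65 in untreated S534A. Cyp3a13 (0.17 ± 0.08) was at 10.83, 10.93, 11.04 and 11.04 in WT and 11.10, 11.18, 11.16 and 11.11 in S534A. These were the 2 members whose untreated genotypes did not overlap, where 5.69% of all genes had none, and neither passed. Cyp2d13 (0.26 ± 0.11), Cyp2c23 (0.15 ± 0.07) and Cyp2c54 (0.18 ± 0.10) followed.

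The interaction, the LPS change in S534A minus that in WT, gave 0 calls among the members and 0% among all genes (limma), with 3 members at an unadjusted p under 0.05 (4.82% of all genes). The largest was that of Cyp2b9 at −1.67 ± 0.59 (95% interval −2.91 to −0.43, adjusted p = 0.951), followed in p by Cyp2c66 (−0.32 ± 0.12), Cyp2b10 (−0.89 ± 0.40), Cyp2c39 (−0.39 ± 0.21) and Cyp2c38 (−0.66 ± 0.39). Of the 53 members 41 had an interval within 1.5-fold. The 4 members called in WT alone and the 11 called in S534A alone are therefore not shown to respond differently in the 2 genotypes. The comparisons share groups of samples: both genotype comparisons and the interaction use the arrays of the LPS comparisons.

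Most tested regulators of the P450 genes were lower after LPS. Of 23 tested receptors and partners 14 fell (60.9%) and 4 rose in WT, and 13 fell (56.5%) and 2 rose in S534A, where 29.9% and 31.2% of all genes fell. Their median changes were −0.58 and −0.56. By lowest p in WT the leading ones were Nr2f2 (COUP-TFII, −1.74 ± 0.12), Arnt, the partner of AhR (0.66 ± 0.05), Rora, a ROR receptor (−0.95 ± 0.08), Cebpb (1.45 ± 0.14), CAR (Nr1i3, −2.37 ± 0.25) and Esrra (−0.78 ± 0.09). CAR was 10.38, 11.31, 10.59 and 11.59 in untreated WT and 8.38, 9.03, 8.23 and 8.73 after LPS, and in S534A 11.23, 11.58, 11.03 and 11.34 against 8.15, 8.34, 8.90 and 8.77. Its groups were far apart in both genotypes, while no member of Cyp2b fell. PXR (Nr1i2) fell by 0.82 ± 0.20 and 0.99 ± 0.20 and PPARα (Ppara) by 0.92 ± 0.21 and 1.20 ± 0.21, while Cyp3a and Cyp4a gave no call in the fit of all arrays and the calls described above under alternatives. AhR rose by 0.53 ± 0.14 in WT and stood at 0.32 ± 0.14 in S534A, where its groups overlapped and it did not pass (limma adjusted p = 0.0741), and these last 3 were named for their role after their values were seen.

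Genes for proteins that serve P450s were measured at 21 tested members of a second list. In this list of electron donors, heme supply and P450 turnover 12 fell (57.1%) and 1 rose in WT (median −0.29). In S534A 13 fell (61.9%) and 1 rose (median −0.25). Over all genes 29.9% fell and 14.9% rose in WT, and 31.2% fell and 14.2% rose in S534A. The leading ones in WT were Cpox (−1.08 ± 0.12) and Alad (−0.60 ± 0.08) of heme synthesis, the cytochrome b5 reductase Cyb5r1 (−0.98 ± 0.11), the heme-binding Pgrmc2 (−0.64 ± 0.09) and cytochrome b5 of the outer mitochondrial membrane, Cyb5b (−0.51 ± 0.08). The heme-degrading Hmox1 rose by 1.43 ± 0.25. P450 reductase (Por) was not among the genes tested here. Of 15 tested P450 genes of the higher families 5 fell in WT (33.3%) and 6 in S534A (40.0%), with none higher (medians −0.19 and −0.15), beside 29.9% and 31.2% of all genes. Beside the bile acid enzymes Cyp7a1 and Cyp8b1 these were, in WT, the thromboxane synthase Tbxas1 (−0.52 ± 0.08), Cyp20a1 (−0.57 ± 0.12) and the sterol demethylase Cyp51 (−0.35 ± 0.13). Of 10 clock genes with D-box factors Nfil3 rose (2.07 ± 0.41) and Hlf fell (−0.86 ± 0.20) in WT, and in S534A Nfil3 rose and 4 fell.

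Markers of the cell types in these samples moved with LPS by unequal amounts. For comparison, 29.9% of all genes fell and 14.9% rose in WT, and 31.2% fell and 14.2% rose in S534A. The mean level of 10 hepatocyte markers stayed at 13.43 to 13.54 on all 16 arrays, with 1 marker higher in WT and none called in S534A. Of 12 Kupffer cell markers 10 fell and 1 rose in each genotype, and their mean went from 9.0 to 9.45 in untreated WT down to 8.04 to 8.39. Of 11 sinusoidal endothelial markers 9 fell and 2 rose in each, from a mean of 9.61 to 9.78 down to 8.30 to 8.73 in WT, and of 12 stellate cell and fibroblast markers 7 fell in WT, and 8 fell and 1 rose in S534A. Of 12 neutrophil markers 11 rose in each, from a mean of 5.70 to 5.79 up to 7.10 to 7.70 in WT, and 4 tested cholangiocyte markers had 1 higher and 1 lower. The part of these cell types in the falls of Cyp2u1, Cyp4b1 and the other members was not tested.

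In the promoter windows, 53 of the 65 members had an entry, with 60 windows of 300 bases in all. The half-site AGGTCA, searched on both strands, occurred in 26.7% of the members' windows and in 16.3% of the 32851 windows of the table. The 16 member windows with it came from 15 genes, among them close copies such as Cyp2b9 and Cyp2b13, and are not independent. Members that failed the filter are counted too, and the difference in share was not tested. GCGTG, the core that AhR binds, occurred in 21.7% against 32.4%, and a spaced NF-kB pattern in 16.7% against 20.7%. The D-box TTANGTAA occurred in 1.67% against 2.32%. The DR1 element, 2 half-sites 1 base apart, and the DR4 element of CAR and PXR were each searched as 1 exact spaced pattern. Variants of the fixed bases and sites outside the windows were not searched. The DR1 pattern was in none of the members' windows and in 0.0396% of all, and the DR4 pattern was in 0 of the 32851 windows. With patterns this rare in all windows, their absence does not show that members lack such elements. Both spaced receptor patterns hold the half-site within them. Cyp1a1, Cyp1b1 and Cyp2b10 were among the 12 members with GCGTG. The members Cyp2c23, Cyp2c54, Cyp2d12, Cyp2d13, Cyp2d22, Cyp2d34, Cyp2g1, Cyp2u1, Cyp4a10, Cyp4a14, Cyp4a31 and Cyp4x1 had no entry.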

How the data were processed

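Liver RNA of 16 samples was labelled with a whole-transcript kit, per the labels' protocols. The values the authors deposited are on a log2 scale, and RMA is named in the submitters' processing notes, with its version and probe set level not given in the sources used here. They ran from 3.49 to 14.54, with array medians from 6.25 to 6.42 and 0 pairs of arrays with identical values. Scanner files were not used here, so signal over background is unknown, and precision is limited by how many arrays there are.

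Groups and replicate numbers came from the titles. The series text gives the LPS dose for the untreated S534A group too, and the titles and source names, which give none, were followed. Of 35556 probe sets the platform annotation gave 21789 a single symbol, 1621 several and 12146 none. All 65 members matched RefSeq (GRCm38.p6) by gene identifier, and 0 symbols changed.

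The filter kept values above the 30th percentile in at least 4 arrays. With limma 3.58.1 (R 4.3.3) each gene was described by 4 group means over 16 arrays (12 residual degrees of freedom, prior 4.28), with two-sided p-values adjusted by Benjamini-Hochberg over 15908 genes and a threshold of 0.05. On simulated data of the same size the fit was checked to recover known changes of at least 2-fold, planted in a small part of the genes. Most changes of the members were smaller, and recovery of such changes was not simulated. Figures used Python 3.11.15 and matplotlib 3.10.9. Alternatives were other filters, probe set summaries, normalizations, weights, a trended and robust eBayes step, a replicate block, only the groups compared, a clock covariate, 3 arrays left out, a 1.5-fold minimum, a wider member rule and each array left out in turn. Leaving arrays out of the clock slopes was added after the data were seen.

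Per-array values, or ranges for members near the filter level, are given for the largest changes past the threshold without overlap (up to 6 rises and 8 falls), the member of highest mean in each subfamily and, between genotypes, the 5 members of lowest p as values; from the lists up to 6 genes of lowest p in WT. The members and lists were chosen with earlier results of these data known. Same-numbered samples of different groups had residual correlations from −0.49 to 0.59 (median −0.05, 9 of 24 over 0.1), so the numbers were not taken to pair samples. The correlation was 0.59 between untreated WT and untreated S534A at numbers 2 and 3, and whether some samples were handled together was not tested.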

Additional observations from a re-analysis of the deposited data

Results flagged for a closer look

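Over the 53 tested members and 4 groups, 11 of 212 sets of 4 arrays (5.19%) held 1 array far from the other 3 by Dixon's test at its 95% critical value. Chance flags about 1 in 20 such sets. Among the genes named for their LPS change, Cyp2c37 was 11.96 in untreated WT array 1, with the others at 12.72 to 12.85. Cyp2d13 was 9.85 in LPS-treated WT array 4 (others 10.07 to 10.11), and Cyp2d10 was 11.06 in LPS-treated S534A array 1 (others 11.40 to 11.42). Cyp2f2 was 13.49 in LPS-treated WT array 4 (others 13.60 to 13.62).

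Among the genes of wide spread, Cyp4a14 was 10.42 in untreated WT array 2, with the others at 11.91 to 12.10, and Cyp2b10 was 8.32 in untreated S534A array 1 (others 9.05 to 9.12). Genes of low level were Cyp2c66, at 5.87 in untreated S534A array 1 (others 5.64 to 5.66), Cyp2g1, at 5.85 in LPS-treated WT array 2 (others 5.52 to 5.57), and Cyp2w1, at 5.96 in the same array (others 6.47 to 6.50). Cyp2j6 was 10.25 in LPS-treated S534A array 3 (others 9.92 to 9.97), and Cyp4f16 was 6.92 in untreated S534A array 2 (others 7.09 to 7.11).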

How the results depend on the processing

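No member changed direction past the threshold, and no alternative gave a call between genotypes or in the interaction, for which the fit of only the groups compared could not be made. In WT the number of members that rose (1) was 2 with a second quantile normalization or array quality weights, 4 with the clock score as covariate and 5 without the 3 arrays of shifted clock, and the number that fell (14) was 25 with arrays centred on their medians and 4 with a 1.5-fold minimum. In S534A the number that rose (1) was 0 with a filter at the array median or a 1.5-fold minimum, 2 with the clock score, 3 without the 3 arrays and 3 with quality weights, and the number that fell (21) was 6 with a 1.5-fold minimum. Leaving out each array in turn gave 0 to 2 rises and 10 to 17 falls in WT, and 1 to 3 rises and 17 to 22 falls in S534A. The replicate numbers were not taken to pair the samples. With them as a block (replicate block) 1 member rose and 15 fell in WT, and 1 rose and 21 fell in S534A. Median centring moved the median change of all genes in WT from −0.05 to −0.16, with 52.4% of all genes called. That of the members moved from −0.17 to −0.27. Array medians were 6.37 to 6.42 in the LPS-treated groups and 6.25 to 6.35 in the untreated ones, an offset that centring takes out. Whether that offset is technical was not tested. Other settings kept the counts within 1.5 times. The cause of the changed counts was not tested. The median SE of an LPS change was 0.10 over the members (interaction 0.14), which limits what could be called, and probe sets with several symbols, such as that of Cyp2a5 and Cyp2a4, give no value for a single gene.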
